A study of Mus musculus with 38 samples.

Results

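In mouse hepatocytes given glucagon and corticosterone, the glucocorticoid receptor (GR) was found at 11892 genomic sites. Of these, 4650 sites shared at least 1 base with a site where the transcription factor CREB was already listed in hepatocytes given no hormone, a share of 39.1% (95% Wilson interval 38.2 to 40.0). The joint sites, as these 4650 are called below, were chosen by the overlap of the deposited GR and untreated CREB regions alone, and the remaining 7242 are called the other GR sites. Seen from CREB, 4635 of the 47596 sites of untreated cells lay at a GR site, which is 9.74% of that list, and 42961 lay away from GR.

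GR is the nuclear receptor for corticosterone, the main adrenal steroid hormone of mice. Bound by hormone, it enters the nucleus and binds DNA, often at places where the chromatin is already open and other factors are bound. CREB, the cAMP response element binding protein, acts downstream of glucagon, a pancreatic hormone of fasting, and is activated by phosphorylation at a serine (pCREB). In liver both factors are known for turning on genes of glucose production during fasting. Acetylation of histone H3 at lysine 27 (H3K27ac) marks active promoters and enhancers.

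The data were peak lists from chromatin immunoprecipitation with sequencing (ChIP-seq) of C57BL/6 mouse liver and of hepatocytes, the main liver cell type, freed from liver by collagenase perfusion. The hepatocyte lists were CREB in untreated cells (1 sample), CREB after 1 h of 10 nM glucagon (2 samples), and CREB and GR after 1 h of 10 nM glucagon plus 1.7 uM corticosterone (2 samples each). The GR sites thus came from cells that had both hormones, and GR in untreated cells or with a single hormone was not analysed here. The liver lists were H3K27ac in fed mice and in mice fasted for 10 or 24 h, and CREB and pCREB in fed mice and in mice fasted for 24 h, with 3 samples in each group. The names of the liver CREB and pCREB lists give 2 of these 3 libraries. GR was precipitated with a mixture of 3 antibodies, CREB with a monoclonal antibody, and pCREB with a monoclonal antibody against the phosphorylated serine. The labels do not say how many animals gave the hepatocytes, or whether animals were pooled.

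Each group had 1 list with 1 value per region, so no spread between replicates exists and no test of a difference between conditions was possible. Every difference given here lies between lists. Intervals are 95% Wilson intervals and cover counting error only. Tag density is the highest density of reads in a region, as deposited by the authors. Its scaling is not stated, so it was turned into a percentile within its own list, where 100 is the densest site. Read depth is unknown, and the 11 lists used held from 6812 to 47777 regions. The lists name no genes, so sites are given by mm9 position and the hepatocyte and liver labels could not be checked against marker genes.

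Joint sites stood among the denser GR sites. GR tag density at joint sites ran from 0.486 to 301 with a median of 7.14, and the middle 50% lay between 4.51 and 12.0. At the other GR sites it ran from 0.742 to 93.5 with a median of 2.81. The ranges overlapped widely, but every GR site with a density above 93.5 was a joint site. The median percentile in the GR list was 72.4 for joint sites and 35.5 for the other GR sites. By the authors' z-score in place of density the medians lay closer together, at 59.1 and 44.6. The rule that defined joint sites used the GR list, so these ranks are a description.

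The share of GR sites that were joint sites climbed with GR density. The GR list was cut into 5 bins of about 2378 sites each, bin 1 holding the lowest and bin 5 the highest densities. From bin 1 to bin 5 the share at untreated CREB was 13.2%, 15.4%, 32.0%, 62.8% and 72.0%, against 39.1% for the whole list. All of the 10 densest GR sites were joint sites, as were 94 of the 100 densest (87.5 to 97.2) and 774 of the 1000 densest (77.4%, 74.7 to 79.9). The median width was 524 bp for joint sites and 370 bp for the other GR sites. Wider sites have more chance to share a base, and the share by width bin was 21.9%, 28.6%, 29.5%, 43.7% and 71.8% from narrow to wide. With only the upper 50% of the GR and of the untreated CREB list by density, the number of joint sites was 2896.

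**Figure D1:**
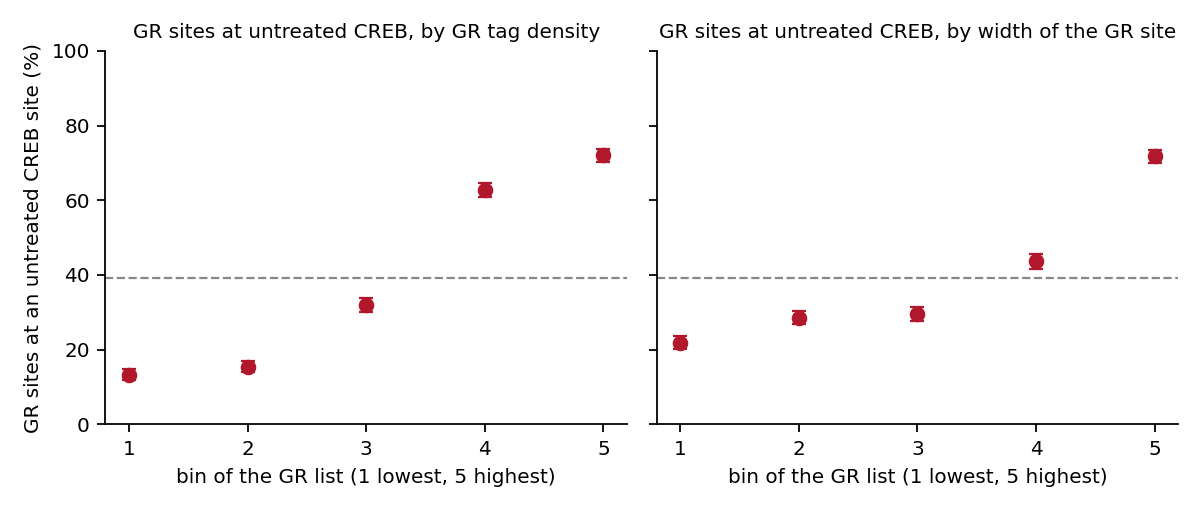
Share of GR sites that share a base with an untreated CREB site (percent, vertical axis) in 5 bins of GR tag density (left) and of GR site width (right). Points are shares with 95% Wilson intervals and the dashed line is the share over all GR sites, 39.1%; the share passes that line from density bin 4, at 62.8%, and from width bin 4, at 43.7%.

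The relation was only partly mirrored on the CREB side. Of the 100 densest CREB sites of untreated cells 7 lay at a GR site (3.43 to 13.7), and of the 1000 densest 73 did (7.30%, 5.85 to 9.08), against 9.74% for the whole untreated list. In 10 bins of untreated CREB density the share at GR was 8.26% in the lowest bin, 5.40% in bin 4, 19.0% (17.9 to 20.1) in bin 9 and 14.4% (13.4 to 15.4) in the densest bin. The sites that GR met most often thus stood high in the untreated CREB list, but not at its top. Untreated CREB sites at GR had a median percentile of 66.9, against 48.7 for those away from GR.

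GR and CREB regions of joint sites lay close to each other. The midpoints of a joint site and its untreated CREB site were a median of 77.0 bp apart (middle 50% from 33.0 to 167), and 2763 pairs (59.4%) lay within 100 bp. The GR region lay wholly inside the untreated CREB region at 42.4% of joint sites, and the reverse held at 22.8%. The CREB regions after hormone were wider, and 65.6% of the joint sites in the glucagon list and 91.2% of those in the list for glucagon plus corticosterone lay wholly inside them. Some regions shared a partner, since 95 joint sites met more than 1 untreated CREB site and 116 CREB sites held more than 1 joint site. Another joint site lay within 10000 bp for 1641 of them (35.3%), so neighbouring sites are not independent.

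CREB was listed at most joint sites after hormone as well. Of the 4650 joint sites, 3546 (76.3%, 75.0 to 77.5) were in the glucagon CREB list, against 37.1% of all GR sites and 11.9% of the other GR sites. In the list for glucagon plus corticosterone 3769 were found (81.1%, 79.9 to 82.2), against 42.7% of all GR sites and 18.0% of the others. Untreated CREB sites away from GR were found there less often, at 39.7% with glucagon and 52.6% with both hormones. The rule required CREB in untreated cells, so the other GR sites lack it by choice.

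**Figure D2:**
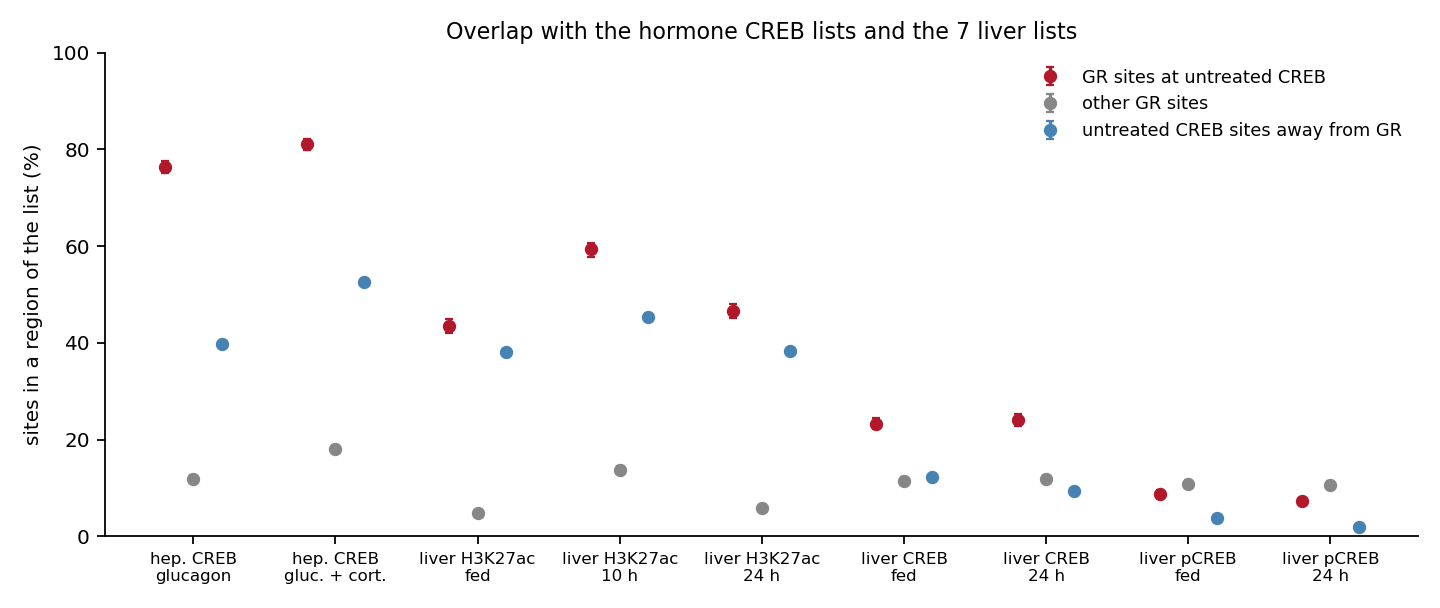
Share of sites (percent, vertical axis) that share a base with a region of each hormone-treated hepatocyte CREB list and each liver list (horizontal axis), for joint sites (red), other GR sites (grey) and untreated CREB sites away from GR (blue), with 95% Wilson intervals. Joint sites stand highest in the hepatocyte CREB, liver H3K27ac and liver CREB lists, for example at 81.1% against 18.0% and 52.6% in the list for glucagon plus corticosterone, but below the other GR sites in both pCREB lists. In both pCREB lists untreated CREB sites away from GR stand lowest.

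At joint sites the CREB regions ranked high in each hepatocyte list. The CREB site at a joint site had a median percentile of 68.7 in the untreated list, 77.8 in the glucagon list (3546 sites) and 89.3 in the list for glucagon plus corticosterone (3769 sites). The sites of the same lists away from GR had medians of 48.7, 47.1 and 45.9. Where the other GR sites met CREB, its median percentile was 32.7 with glucagon (865 sites) and 71.0 with both hormones (1305 sites). These lists differ in length, so the percentiles of different lists show no change by themselves.

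A set of CREB sites common to all 3 hepatocyte lists removed the unequal lengths. It held the 19269 untreated CREB sites that were also found in both hormone lists, ranked among themselves in each condition. Of these, 3427 lay at a GR site and 15842 away from GR. In untreated cells the sites at GR had a median percentile of 48.7 within this set and those away from GR 50.3. With glucagon the medians were 69.3 and 46.3, and with glucagon plus corticosterone 79.2 and 43.9. The sites later found at GR were thus of average CREB density among the common sites before hormone and ranked well above the rest after it. Ranked by z-score, the medians in untreated cells were 52.6 at GR and 49.3 away, in the opposite order, and those after hormone kept theirs, at 73.8 and 80.9 at GR.

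The order held site by site in the common set. With glucagon, 2508 of the 3427 sites at GR ranked higher than in untreated cells (73.2%, 71.7 to 74.6), against 42.7% of all common sites and 36.2% of those away from GR. In the list for both hormones 2454 sites at GR ranked higher than with glucagon alone (71.6%, 70.1 to 73.1). The share was 44.9% over all common sites and 39.1% away from GR. From untreated cells to both hormones, 2785 ranked higher (81.3%, 79.9 to 82.5), against 38.3% of all and 29.0% away from GR. The median gain over that step was 21.0 percentile points at GR, and sites away from GR had a median of -6.76. Ranks are relative, so some sites must rank lower when others rank higher. GR was itself listed in cells given both hormones, and the cause of these differences between lists was not tested.

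Sites under denser GR moved further. At GR sites of density bin 5 the median CREB percentile was 56.5, 82.2 and 89.4 in untreated, glucagon and double-hormone cells (1610 sites), and 93.7% ranked higher with both hormones than without. In bin 4 the medians were 46.6, 63.2 and 69.6 (1255 sites), with 74.9% higher. In bin 3 they were 28.1, 31.8 and 44.1 (469 sites), with 60.1% higher. Bins 1 and 2 held only 26 and 67 common sites. The difference from sites away from GR was also present within each 20% of the common sites by untreated CREB density. In the lowest 20%, 91.4% of those at GR ranked higher with both hormones, against 61.5% of those away. The sites at GR began lower there, at median percentiles of 5.62 and 10.9. In the middle 20%, with like medians of 50.3 and 49.9, the shares were 85.4% and 28.3%. In the highest 20%, where there is little room above, the shares were 61.2% and 1.94%. Sites at GR again began lower there, at 87.6 and 90.4. From glucagon alone to both hormones the shares that ranked higher were 82.5% and 45.4% in the lowest 20%, and 50.4% and 22.6% in the highest.

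**Figure D3:**
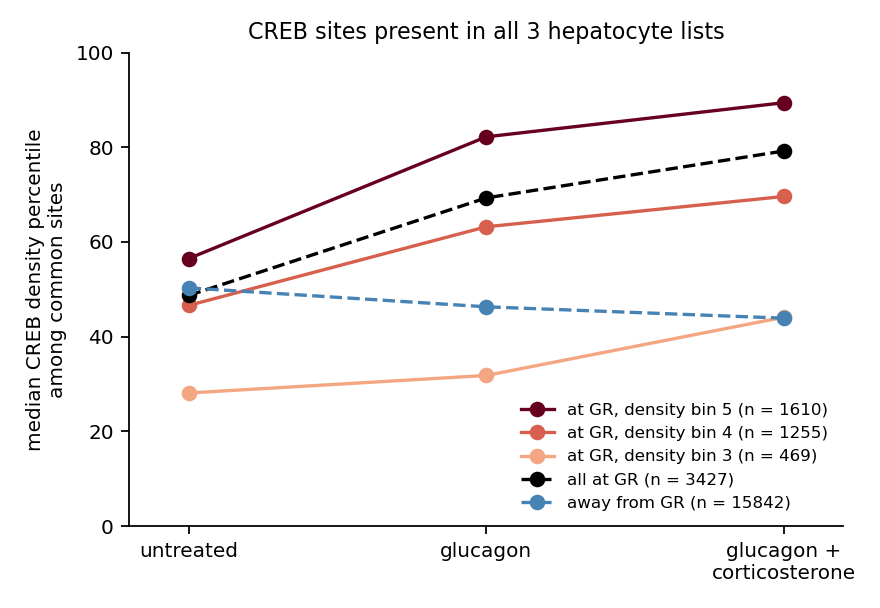
Median CREB density percentile (vertical axis) of the 19269 untreated CREB sites found in all 3 hepatocyte lists, ranked among themselves in each condition (horizontal axis), for sites at GR by GR density bin, for all sites at GR and for sites away from GR. All 5 lines join medians of the same sites, without error bars; sites at GR of bin 5 go from 56.5 to 89.4, while sites away from GR go from 50.3 to 43.9.

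Joint sites fell into 4 classes by CREB after hormone. The largest class, 3438 sites (73.9%, 72.7 to 75.2), was in both hormone CREB lists, against 34.3% of all GR sites. A further 331 (7.12%, 6.41 to 7.89) were in the list for glucagon plus corticosterone but not in that for glucagon, against 8.36% of all GR sites, and 108 (2.32%, 1.93 to 2.80) showed the reverse, against 2.78%. In neither hormone list were 773 joint sites (16.6%, 15.6 to 17.7), against 54.5% of all GR sites. The classes had very unequal ranks. The median GR percentile was 78.1 in the first class, 63.0 with both hormones only, 50.2 with glucagon only and 29.8 in the class without CREB after hormone. The untreated CREB percentile followed the same order, at 78.4, 46.2, 23.8 and 13.6. A weak site can be missing from a list through its threshold alone, so absence from a hormone list was not read as loss of CREB.

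Many joint sites of isolated hepatocytes lay in acetylated chromatin of whole liver. In the fed list 2021 of them shared a base with an H3K27ac region (43.5%, 42.0 to 44.9), against 19.9% of all GR sites. After 10 h of fasting 2756 did (59.3%, 57.8 to 60.7), against 31.6%, and after 24 h 2166 did (46.6%, 45.2 to 48.0), against 21.8%. The other GR sites lay in these lists at 4.79%, 13.8% and 5.91%. Untreated CREB sites away from GR, which also carry CREB without hormone, lay there at 38.1%, 45.3% and 38.3%, nearer to the joint sites than the other GR sites were. The liver lists played no part in choosing the sites. With windows of 500 bp around the midpoints of all regions the shares of joint sites were 29.4%, 40.7% and 30.9%, against 4.54%, 12.2% and 5.38% of the other GR sites.

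GR density and CREB each went with acetylation. In the 24 h list the share of joint sites from GR density bin 1 to bin 5 was 1.90%, 5.72%, 31.2%, 53.7% and 64.2%. Among the other GR sites it was 0.0484%, 0.547%, 2.48%, 15.4% and 36.0%. At like GR density, joint sites were thus acetylated more often in every bin over all chromosomes. On chromosome X the order in bin 5 was the reverse, with 34.5% of 29 joint sites (19.9 to 52.7) and 60.9% of 92 other GR sites (50.7 to 70.2). The same held at like width, with 47.7% in the narrowest and 55.7% in the widest bin of joint sites, against 2.96% and 18.2% of the other GR sites. The H3K27ac regions at joint sites were also among the denser ones of their lists, with median percentiles of 77.8 fed, 81.1 at 10 h and 80.0 at 24 h, against 62.9, 40.5 and 67.6 where the other GR sites met H3K27ac.

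**Figure D4:**
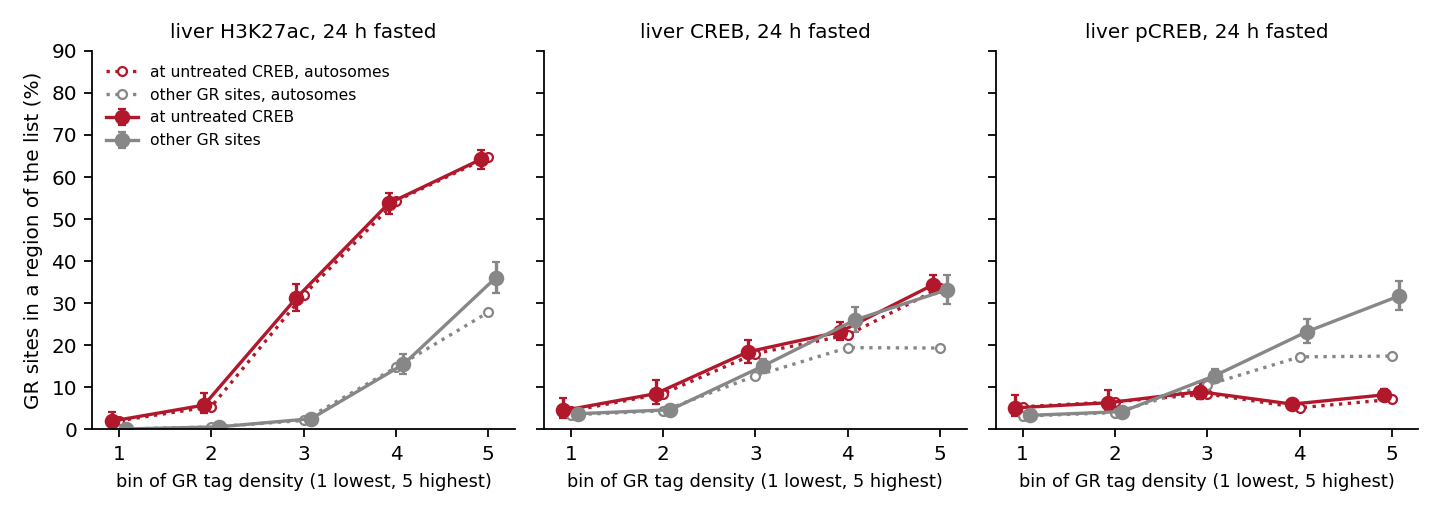
Share of GR sites (percent, vertical axis) in the H3K27ac, CREB and pCREB lists of 24 h fasted liver, by bin of GR tag density (horizontal axis), for joint sites (red) and other GR sites (grey), with 95% Wilson intervals; dotted lines with open points give autosomes alone. Joint sites lie above the others in every H3K27ac panel point, reaching 64.2% against 36.0% in bin 5, while for pCREB they stay at 8.17% in bin 5, below the 31.7% of the other GR sites.

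Acetylation at joint sites was mostly shared between fed and fasted liver. Of the 4650 sites, 1898 (40.8%, against 18.6% of all GR sites) were in all 3 H3K27ac lists and 1812 (39.0%, against 67.4%) in none. The list at 10 h alone held 578 (12.4%, against 9.78%), and that list was the longest of the 3. The 24 h list without the fed list held 239 (5.14%, 4.54 to 5.81, against 2.88% of all GR sites), and 196 of these were also in the 10 h list (4.22%, against 2.30%). The fed list without the 24 h list held 94 (2.02%, 1.65 to 2.47, against 0.975%). For each joint site with H3K27ac in the fed and not the 24 h list there were thus 2.54 with the reverse. The same ratio was 4.68 for the other GR sites, 1.07 for untreated CREB sites away from GR and 1.49 for all H3K27ac regions of both lists. With windows of 500 bp around all midpoints, the ratio was 1.30 for joint sites and 0.997 for untreated CREB sites away from GR. By GR density the ratio with deposited borders was 5.32 in bin 5 (133 and 25 sites), 1.49 in bin 4 and 1.53 in bin 3, and bins 1 and 2 held under 10 such sites each. Among the other GR sites the same 2 counts were 39 and 8 in bin 5, 49 and 8 in bin 4 and 13 and 3 in bin 3. More sites in the 24 h than in the fed list alone was thus not particular to joint sites.

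Liver CREB was listed at a minority of joint sites. The fed list met 1083 (23.3%, 22.1 to 24.5), against 16.1% of all GR sites, and the fasted list 1119 (24.1%, 22.9 to 25.3), against 16.7%. The other GR sites lay there at 11.5% and 11.9%, and untreated CREB sites away from GR at 12.2% and 9.44%. In both lists were 798 joint sites (17.2%, against 12.1% of all GR sites). The fed list alone held 285 (6.13%, against 4.03%) and the fasted list alone 321 (6.90%, against 4.60%). At most joint sites, then, the CREB site of untreated hepatocytes had no counterpart in the liver CREB lists. Without the GR sites at a liver pCREB site, the shares were 16.8% fed and 17.6% fasted at joint sites and 2.89% and 2.82% at the other GR sites.

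Chromosome X changed how liver CREB compared at dense GR sites. In GR density bin 5 the fasted CREB list held 34.3% of the joint sites (32.1 to 36.6) and 33.2% of the others (29.7 to 36.8), which overlap. In the fed list they were 30.0% and 31.5%, and in bin 4 23.8% and 24.5% fed and 23.2% and 26.0% fasted, and the intervals overlap there too. On autosomes alone the fasted shares of bin 5 were 33.6% (31.4 to 35.9) and 19.3% (16.2 to 22.8), and the fed shares 29.3% and 16.9%. In bin 4 the autosomal fasted shares, 22.4% (20.3 to 24.6) and 19.4% (16.8 to 22.3), had overlapping intervals. On X, 82 of the 92 other GR sites of bin 5 (89.1%) and 20 of the 29 joint sites (69.0%) were in the fasted CREB list. The X chromosome held 12.9% and 14.0% of the regions of the fed and fasted pCREB lists and 8.59% and 9.72% of the liver CREB regions, but 4.09% of the untreated hepatocyte CREB sites.

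Phosphorylated CREB in liver was listed at few joint sites. The fed pCREB list met 403 (8.67%, 7.89 to 9.51), against 9.99% of all GR sites and 10.8% of the others. The fasted list met 336 (7.23%, 6.52 to 8.01), against 9.33% and 10.7%. Untreated CREB sites away from GR lay in these lists at 3.68% and 1.95%, less often than the joint sites did. On autosomes the fed shares were 7.93% of joint sites and 7.98% of the others, and their intervals overlap. The fasted shares were 6.49% (5.81 to 7.25) and 7.81% (7.19 to 8.47). On X, 30.5% of the 131 joint sites and 41.4% of the 502 other GR sites were in the fed list. With only the upper 50% of the GR and untreated CREB lists, GR sites at CREB met fasted pCREB at 4.66%. The remaining GR sites of that upper 50% did so at 22.1%, but some of these met an untreated CREB site of lower density. Both pCREB lists held 219 joint sites (4.71%, against 6.74% of all GR sites), the fed list alone 184 (3.96%, against 3.25%) and the fasted list alone 117 (2.52%, against 2.59%). All 4 liver CREB and pCREB lists met 183 (3.94%, 3.41 to 4.53, against 5.89% of all GR sites).

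The pCREB share of joint sites did not climb with GR density, unlike that of the other GR sites. In the fasted list it was 5.08% in bin 1, 8.92% in bin 3 and 8.17% in bin 5. Among the other GR sites it went from 3.29% to 12.7% and 31.7%. On autosomes the values of bin 5 were 7.08% (5.95 to 8.41) of 1681 joint sites and 17.4% (14.5 to 20.9) of 539 others. Where a joint site met pCREB, the pCREB region had a median percentile of 71.4 in the fed and 75.5 in the fasted list, close to the 68.2 and 75.6 found at the other GR sites.

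The hormone classes differed in what they met in liver. Joint sites in both hormone CREB lists lay in H3K27ac of 24 h fasted liver at 57.7% (56.0 to 59.3), those with both hormones only at 39.0% (33.9 to 44.3), those with glucagon only at 16.7% (10.8 to 24.8) and those in neither at 4.53% (3.27 to 6.23). Fasted pCREB had another order, at 4.83% (4.16 to 5.60), 10.3% (7.44 to 14.0), 32.4% (24.3 to 41.7) and 13.1% (10.9 to 15.6). The glucagon-only class, of 108 sites, also led in fed pCREB, at 36.1% (27.7 to 45.5), and in fed CREB, at 38.9% (30.2 to 48.3). The class with CREB in both hormone lists thus met liver acetylation most and liver pCREB least.

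**Figure D5:**
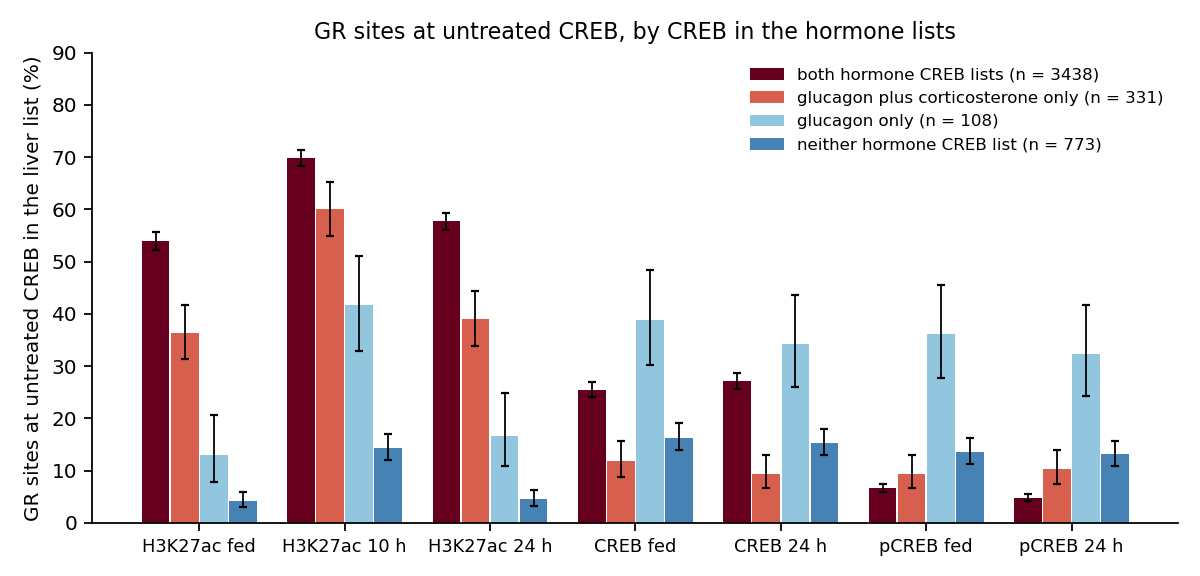
Share of joint sites (percent, vertical axis) in each liver list (horizontal axis), for 4 classes by CREB in the hormone lists, with 95% Wilson intervals. Bars of the class in both hormone lists are highest for H3K27ac, at 57.7% in 24 h fasted liver, and lowest for pCREB, at 4.83% in fasted liver; the 108 sites of the glucagon-only class reach 32.4% there.

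Over all 7 liver lists, 1522 joint sites (32.7%, 31.4 to 34.1) met none, against 59.2% of all GR sites and 76.2% of the others. All 7 lists met 82 (1.76%, against 2.00% of all GR sites). The most frequent number above 0 was 3 lists, at 1167 joint sites (25.1%, against 12.0% of all GR sites and 3.66% of the others). The median GR percentile was 61.8 for joint sites in no liver list and 87.9 for those in all 7.

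Single sites are given with their ranks, where rank 1 is the densest. CREB ranks are out of 47596 sites in untreated cells, 28229 with glucagon and 42090 with both hormones, so ranks of different lists show no change by themselves. The densest GR site of the list lay at chr4:150058675-150059968, with a GR tag density of 300.5. Its CREB site stood at rank 4098 in untreated cells, 293 with glucagon and 3 with glucagon plus corticosterone. Its H3K27ac region had rank 432 fed, 1252 at 10 h and 155 at 24 h, and its liver CREB site rank 3112 fed and 1116 fasted. A pCREB site was listed there in fasted liver (rank 440) and not in fed liver.

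The second densest, chr2:154878056-154879186, had a GR density of 277.9 and CREB ranks of 2830, 744 and 16 in the same order. The third, chr17:39979757-39985997, was unlike the rest: it spanned 6240 bp, had CREB ranks of 649, 37 and 1235, and met no liver list. At chr9:48531346-48532469, with a GR density of 174.6, CREB stood at rank 17892 in untreated cells, 11540 with glucagon and 47 with both hormones. A site at chr4:150129208-150130288, on the same chromosome as the first and with a GR density of 164.9, had CREB ranks of 2277, 46 and 6 and met all 7 liver lists.

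The 8 densest joint sites had GR densities of 164.9 to 300.5, and all 8 were in every hepatocyte CREB list (28.9% of all GR sites). Of the 8, 6 were in H3K27ac of fed liver, 7 at 10 h and 7 at 24 h. Over all GR sites these shares were 19.9%, 31.6% and 21.8%. Liver CREB met 4 of them in fed and 7 in fasted mice (16.1% and 16.7% of all GR sites). The pCREB lists met 2 and 5 (9.99% and 9.33%). Over all joint sites the fed and fasted shares were 23.3% and 24.1% for CREB and 8.67% and 7.23% for pCREB.

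Joint sites with the densest untreated CREB were of another kind. The top CREB site of untreated cells was met at chr7:52974229-52974703, where GR had a density of 4.3 (rank 5432) and shared 53 bases with it. The joint site also met the CREB site of rank 1 with both hormones. It shared no base with a region of the glucagon list or of any liver list. A glucagon CREB region just beside it would not be counted. The next, chr5:77334256-77334890, had CREB ranks of 19, 15 and 31, a GR density of 8.2 (rank 2751) and a region in all 7 liver lists. The 5 joint sites of highest untreated CREB density had GR densities of 3.6 to 10.1 and GR ranks of 2030 to 6169. At the 4 of them present in the glucagon list, CREB ranked within the first 170 sites there.

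Sites with H3K27ac in 24 h fasted and not in fed liver were led by chr11:11744181-11745158, the fourth densest GR site, at 194.9. Its CREB ranks were 8127, 1004 and 124. The next, chr10:68566826-68568095, had a GR density of 153.4 and CREB ranks of 3929, 228 and 18. The 5 densest sites of this kind had GR ranks of 4 to 46, and all 5 met CREB in fasted and none in fed liver. That did not hold for all sites of this kind: fasted liver CREB met 26.5% of the 196 that were also in the 10 h list and 34.9% of the other 43, against 38.8% of the joint sites in all 3 H3K27ac lists. The 5 densest sites of the opposite kind, in fed and not in 24 h H3K27ac, began at chr6:37347584-37348585 with a GR density of 56.7. Their GR ranks were 121 to 451, and none of the 5 met a liver CREB or pCREB site. Few sites of this kind met fasted liver CREB in any case. It met 7.14% of the 84 that were also in the 10 h list and 10.0% of the other 10.

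The 5 densest joint sites in no liver list had GR densities of 94.8 to 214.8 and CREB in all 3 hepatocyte lists. After the chr17 site came chr4:32401530-32402761, with a density of 147.9 and CREB ranks of 8535, 968 and 38. Very dense GR, with dense CREB under both hormones, therefore also occurred in isolated hepatocytes without any of the 7 liver lists. The chr4 site shows this without the unusually wide chr17 site. No filter for repeated sequence was applied here, so the signal of the chr17 site may not be comparable with the rest. Among sites in all 7 lists, chr2:167602517-167603696 had a GR density of 150.0 and CREB ranks of 471, 85 and 24, and chr4:35173350-35174318 one of 121.4 and ranks of 641, 5 and 2.

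Joint sites in neither hormone CREB list were weaker even at their top, with GR densities of 14.8 to 25.0 for the 5 densest. The leading site, chr11:86395186-86395662, and its neighbour chr11:86395668-86395920 met the same untreated CREB site, of rank 1255. The other 3 lay on chromosomes X and Y, and each of these met all 7 liver lists.

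At the edge of the rule, the joint sites with the fewest shared bases had 5, 6 and 7 bases in common with CREB. They lay at chrX:37717664-37718014, chr5:34493719-34493975 and chr12:14799326-14799747, with GR densities of 3.2, 2.2 and 2.6. Just outside, chr7:70432353-70432650 ended 4 bp from a CREB site at a GR density of 3.0, and chr1:116609086-116609338 and chr4:18988872-18989272 lay 6 bp away, each at 1.9. With an overlap of 50% of the shorter region required, 4452 joint sites were found.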

How the data were processed

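ChIP-seq peak lists of mouse liver and hepatocytes were analysed. Per the submitters' processing notes, CASAVA 1.8 and build mm9 were used. Aligner and peak caller settings: not given in the sources used here. Of 13 deposited lists, 11 were matched to 11 of 15 groups (38 samples) by comparing library numbers in list names with those in sample descriptions. For 2 lists (16 columns of values) no sample was found and they were left out, and 4 groups with 10 samples (C/EBPb, liver GR) were not analysed here. List names mention hotspot calling. They call the 3 H3K27ac lists pooled, and give 2 libraries and a false discovery rate tag for the other 8, where untreated CREB has 1 library against itself. Per the file headers, the authors give each region a position, a running number, a maximal tag density (a signal) and a z-score. The density signal and the score (in units of z) came from the authors' peak calling, per the file headers, and their scaling is not stated. The GR list holds 60.7% as many regions as its highest running number, the untreated CREB list 99.6%. It is not stated what that number counts, so filtering may differ between lists, and read depth is unknown.

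Computed here were overlaps (at least 1 shared base, deposited borders), percentile ranks within a list (of the densest CREB site where a GR site met several), 5 equal bins by density or width, and 95% Wilson intervals. No test was run, because each group has 1 list. Overlap counting was tested on simulated regions. Software was numpy 2.4.6, SciPy 1.17.1, pandas 2.3.3 and matplotlib 3.10.9 under Python 3.11.15. The members, lists and tests were chosen with earlier results of these data known. Named by rule were the 8 joint sites of highest GR density, the 5 of highest untreated CREB density, the 5 of highest GR density in no hormone list, in none or all of the 7 liver lists and in H3K27ac of 24 h or of fed liver only, the 3 with fewest shared bases and the 3 nearest non-members. Alternatives were a shared stretch of 50%, a 500 bp gap, 500 bp windows, shortened lists, removal of X and Y, and ranking by z-score. The common-set ranking, the alternatives of the H3K27ac ratio and the removal of sites at pCREB were added after seeing the data. The gene and promoter tables at hand are of build GRCm38.p6, so no gene or sequence is given.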

Additional observations from a re-analysis of the deposited data

How the results depend on the processing

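Of 118 values recomputed for 20 results, 54 moved by less than the counting interval (counts and ratios: less than 1.5 times), 63 moved beyond it and 1 changed order; the cause of these shifts was not tested beyond what each setting removes. In the order GR percentile of joint sites, CREB percentiles (untreated, glucagon, both hormones), shares in the hormone CREB lists (glucagon, both), H3K27ac (fed, 10 h, 24 h), CREB and pCREB (each fed, fasted), the shifted values were as follows. A shared stretch of 50% gave a GR percentile of 73.2, H3K27ac shares of 38.7%, 56.2% and 42.3% and a midpoint distance of 72.5 bp. A gap of 500 bp gave 70.4, hormone list shares of 74.8% and 79.0%, CREB 25.8% and 26.4%, and pCREB 10.6% and 9.35%. With 500 bp windows the untreated CREB percentile was 66.0, the hormone list shares 73.5% and 74.5%, H3K27ac 29.4%, 40.7% and 30.9%, and fed CREB 22.1%. With the untreated list shortened to the 28229 sites of the glucagon list they were 79.4 (GR), 82.6 and 91.3 (CREB after hormone), 92.1% and 97.2%, 60.0%, 71.5% and 64.1%, 26.7% and 28.0%, and 6.95% and 5.10%. With the upper 50% of the GR and untreated lists there were 2896 joint sites, with 61.5, then 64.2, 84.0 and 92.1, 93.7% and 98.0%, 62.8%, 72.5% and 66.7%, 27.8% and 29.3%, and 6.63% and 4.66%. With the upper 50% of each liver list H3K27ac was 33.7%, 46.1% and 38.1%, CREB 16.4% and 16.9%, and pCREB 6.60% and 5.94%. Without X and Y fasted pCREB was 6.49%. Ranked by z-score, the GR percentile was 59.1 and the CREB percentiles 72.4, 81.1 and 90.2. Chosen after seeing the data were the removal of GR sites at liver pCREB (10 h H3K27ac 57.5%, CREB 16.8% and 17.6%), the alternatives of the ratio of H3K27ac at 24 h and not fed to the reverse (1.30 with 500 bp windows), and those of the common set, where the z-score gave 52.6 (at GR, above the 49.3 away from GR), 73.8 and 80.9. Settings that changed the overlap rule, the borders or the length of the GR or untreated CREB list also redrew which GR sites counted as joint. In every setting run, joint sites stayed above the other GR sites in GR percentile, hormone list, H3K27ac and liver CREB shares, and were below them in pCREB shares, except that without X and Y the fed pCREB shares, 7.93% and 7.98%, had overlapping intervals.

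No paired analysis was possible because each group has 1 list and no value per library. Leaving out each replicate could not be run for the same reason. Since the lists give no read counts, the depth behind a missing region is unknown.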

Other observations

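The share of GR sites that were joint sites varied by chromosome. It was lowest on Y (6 of 58 sites, 10.3%, 4.83 to 20.8), X (131 of 633, 20.7%, 17.7 to 24.0) and chromosome 14 (132 of 459, 28.8%, 24.8 to 33.1). It was highest on chromosomes 19 (154 of 291, 52.9%, 47.2 to 58.6) and 11 (231 of 471, 49.0%, 44.6 to 53.5). H3K27ac of 24 h fasted liver met 23.7% of the joint sites on X and 47.2% of those on autosomes. Of the 183 joint sites in all 4 liver CREB and pCREB lists, 19.1% lay on X, against 36.7% of the other GR sites in those lists. Joint sites are fewer on X to begin with. All 4 lists met 26.7% of the joint sites on X and 3.17% of those on autosomes. For the other GR sites these shares were 37.8% and 4.31%.

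Very wide GR sites were mostly joint sites. Of the joint sites, 43 were wider than 2000 bp (0.925%), as were 9 of the other GR sites (0.124%). In the widest of the 5 width bins 71.8% of all GR sites were joint sites, and wider sites have more chance to share a base. The widest, chr13:55284621-55292940, spanned 8319 bp with a GR density of 139.6 and met 6 of the 7 liver lists. The next, chr12:19122826-19130330, spanned 7504 bp with a density of 17.6 and met 4. Wide regions of this kind were chosen after their values were seen.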
